A study of Mus musculus with 47 samples.

Results

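The nuclear genes of oxidative phosphorylation were followed in muscle progenitor cells of mouse embryos with and without MyoD and with Notch signalling blocked. They were taken by symbol: names that start with Nduf, Uqcr, Atp5, Cox4i, Cox5, Cox6, Cox7 or Cox8, and the genes Sdha, Sdhb, Sdhc, Sdhd, Cyc1 and Cycs. The probe table used here held 87 such genes, 1 of them the pseudogene Ndufs5-ps, and 80 were detected in at least 4 arrays, among 8658 genes tested. Detected here means a detection p-value under 0.01 against the 798 negative control probes of the array. The 7 genes below that filter, Atp5k, Cox4i2, Cox7b2, Cox8c, Ndufs1, Uqcrfs1 and Uqcrq, were detected in 0 arrays. Other genes of the rule, such as Sdha, Ndufs5 and Ndufa4l2, were not analysed here. Of the 80 genes, 71 were detected on all 47 arrays.

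Cells that carried Vcam-1 and lacked CD31, CD45 and Sca1 were isolated with a cell sorter from back muscle at embryonic day E17.5, and their total RNA was hybridised. The mice had a mixed background of C57BL/6, 129/Sv and 129/Ola. There were 10 wild-type arrays, 4 of MyoD+/-, 18 of MyoD-/-, 8 of Pax3cre/+;DnMamlflox/flox;MyoD-/- (called DnMaml/MyoD below) and 7 of Pax3cre/+;Rbpjflox/flox;MyoD-/- (called Rbpj/MyoD below). Both double mutants lack MyoD, as does the MyoD-/- group they were compared with. MyoD is the transcription factor that commits cells to muscle differentiation, Rbpj is the DNA-binding protein of the Notch pathway, and DnMaml is a dominant-negative form of its coactivator Mastermind-like. Pax3cre acts in cells of the Pax3 lineage, which include limb and trunk muscle progenitors and neural crest, so recombination is not limited to muscle cells.

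Oxidative phosphorylation passes electrons from NADH (complex I) and succinate (complex II) through complex III and cytochrome c to oxygen at complex IV, and the proton gradient so built drives ATP synthase. Most subunits are encoded in the nucleus and made in nearly every cell. Complex IV is the exception in muscle, where differentiated fibres replace the general isoforms of subunits 6a, 7a and 8 (Cox6a1, Cox7a2, Cox8a) by heart and skeletal muscle isoforms (Cox6a2, Cox7a1, Cox8b). Cox7a1 and Cox8b are also well-known genes of brown fat.

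Values are log2 normalised intensities, and a change is a difference of such values between genotypes with the chip held constant. Calls required an adjusted p under 0.05 (limma, two-sided, Benjamini-Hochberg over all 8658 genes). The arrays lay on 7 chips: wild-type arrays on chips 1, 2 and 4 to 7, MyoD+/- arrays on chips 4 to 7 only, and chip 3 holding 4 MyoD-/- and 3 Rbpj/MyoD arrays. Chips were numbered here in the order of the array barcodes, not by date. The wild-type arrays of chips 1 and 2 stood apart from those of chips 4 to 7 in muscle differentiation genes. The log2 of the summed intensities of these genes was 15.3 to 15.8 on the first and 16.4 to 16.6 on the second. The brightest genes weigh most in such a sum. The probe for Myod1, the targeted gene, read 10.76 to 11.59 on wild-type arrays and 10.71 to 10.96 on MyoD+/- arrays. It read 8.78 to 9.63 without MyoD, and 8.95 to 9.48 and 8.38 to 9.70 in the DnMaml/MyoD and Rbpj/MyoD mutants. Its place relative to the deleted part is not known here. Of the other progenitor markers, Pax7, Pax3 and Myf5 were below the filter. No label says whether the arrays are separate embryos, so the p-values measure the spread between these arrays, which may in part be technical. Of the arrays of chip 6, 2 of 6 differed in sex, as read from Xist and Eif2s3y, from the array of like genotype and position on chip 7. In sorted bulk samples fewer cells of a type and less RNA per cell cannot be told apart.

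Cox6a2 was the member that moved most. It fell in MyoD-/- cells against wild type, rose in DnMaml/MyoD cells against MyoD-/-, and was lower in Rbpj/MyoD than in DnMaml/MyoD. Its log2 intensity ran from 6.12 over a median of 7.51 to 9.497 in wild type. The 4 MyoD+/- arrays read 9.43, 9.12, 8.62 and 9.33. In MyoD-/- it ran from 5.404 over 7.003 to 7.825. All 8 DnMaml/MyoD arrays lay above every MyoD-/- array, at 8.21 to 9.07 with a median of 8.64. The 7 Rbpj/MyoD arrays lay at 5.92 to 7.20 with a median of 6.77, inside the MyoD-/- range and below every DnMaml/MyoD array. The probe was detected on 8 of 10 wild-type, 4 of 4 MyoD+/-, 12 of 18 MyoD-/-, 8 of 8 DnMaml/MyoD and 5 of 7 Rbpj/MyoD arrays. The change from wild type to MyoD-/- was -1.09 on the log2 scale (SE 0.263, limma adjusted p = 1.89e-03), a 2.13-fold fall. From MyoD-/- to DnMaml/MyoD it was 1.82 (SE 0.278, limma adjusted p = 7.93e-06), a 3.54-fold rise. Rbpj/MyoD did not pass the test against MyoD-/- (-0.39, 95% interval -0.99 to 0.21, limma adjusted p = 0.364), and was 4.64-fold lower than DnMaml/MyoD (-2.21, SE 0.362, limma adjusted p = 3.98e-05). Within single chips the signs were uniform: below 0 on 6 of 6 chips for MyoD-/- against wild type (-2.37 to -0.29), and above 0 on 6 of 6 for DnMaml/MyoD against MyoD-/- (0.96 to 2.63).

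Cox6a2 was also read separately on chips 1 and 2 and on chips 4 to 7. Wild-type arrays read 6.12 to 7.72 on chips 1 and 2 and 8.851 to 9.497 on chips 4 to 7. On chips 1 and 2 they overlapped the MyoD-/- range, and on chips 4 to 7 all 4 lay above the MyoD-/- arrays of those chips, at 6.43 to 7.83. The change from wild type to MyoD-/- was accordingly -0.54 (SE 0.277, limma adjusted p = 0.175) on chips 1 and 2 and -1.80 (SE 0.294, limma adjusted p = 1.43e-04) on chips 4 to 7. The difference between these effects did not pass its test (-1.26, SE 0.404, limma adjusted p = 0.186). In that test 12 genes of all tested passed (0.139%, 0.0231% toward higher and 0.116% toward lower values) and 0 members did. An unadjusted p under 0.05 was reached by 6 members and by 1100 of all 8658 genes. The rise in DnMaml/MyoD over MyoD-/- was 2.27 on chips 1 and 2 and 1.29 on chips 4 to 7, both called, and their difference did not pass (-0.99, adjusted p = 0.35). MyoD+/- arrays, all on chips 4 to 7, differed from the wild-type array of their own chip by -0.38 to 0.48, above 0 on 2 of 4 chips.

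**Figure D1:**
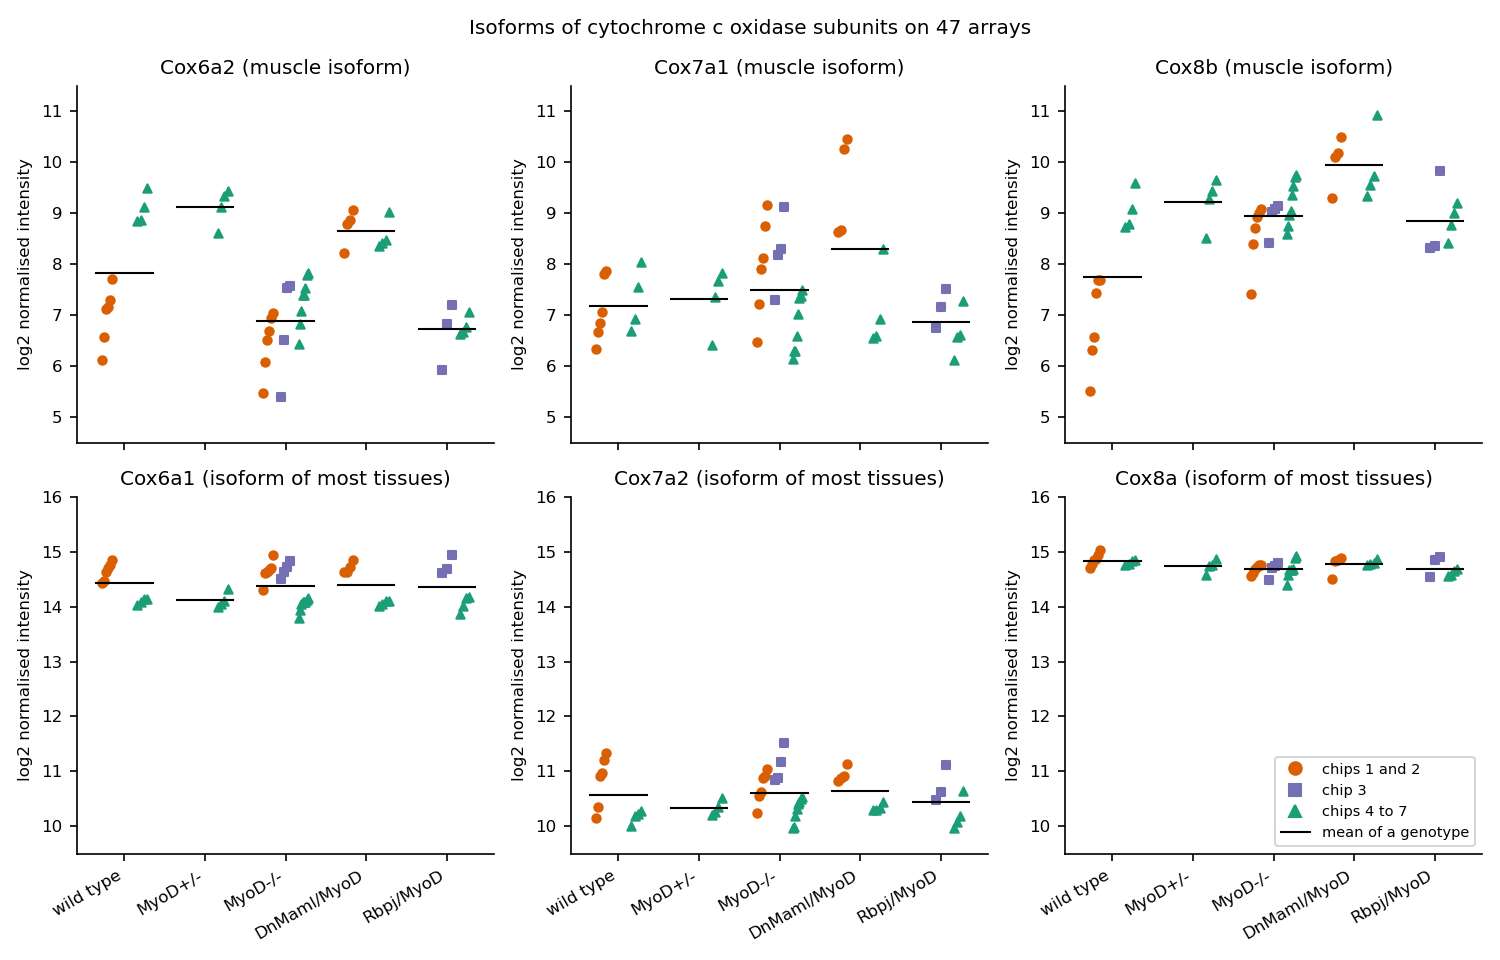
Log2 normalised intensity of the muscle isoforms Cox6a2, Cox7a1 and Cox8b (upper panels) and of the general isoforms Cox6a1, Cox7a2 and Cox8a (lower panels, another range of the axis) by genotype. Points are arrays, coloured by chip set, and lines are genotype means. For Cox6a2 all 8 DnMaml/MyoD arrays lie above the 18 MyoD-/- arrays, and wild-type arrays of chips 4 to 7 lie above those of chips 1 and 2.

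Cox8b had a different order. It rose in MyoD-/- cells against wild type and rose again in DnMaml/MyoD, and was lower in Rbpj/MyoD than in DnMaml/MyoD. The wild-type arrays ran from 5.52 over 7.69 to 9.60, with 7 of 10 detected. MyoD+/- arrays read 9.66, 9.28, 8.52 and 9.43. The ranges and medians were 7.42 to 9.75 (9.01) in MyoD-/-, 9.29 to 10.9 (9.92) in DnMaml/MyoD and 8.32 to 9.83 (8.77) in Rbpj/MyoD, and these groups overlapped. The change was 1.02 from wild type to MyoD-/- (SE 0.276, limma adjusted p = 5.68e-03), a 2.03-fold rise. It was 1.10 from there to DnMaml/MyoD (SE 0.293, limma adjusted p = 9.42e-03, 2.15-fold), and -1.44 from DnMaml/MyoD to Rbpj/MyoD (SE 0.381, limma adjusted p = 0.0131, 2.71-fold lower). Against wild type the change was 1.72 (limma adjusted p = 7.93e-04) on chips 1 and 2 and 0.16 (limma adjusted p = 0.913) on chips 4 to 7. The difference of -1.56 had an adjusted p of 0.175. This call was lost without chip 1 (adjusted p = 0.0963) and without chip 2 (adjusted p = 0.0957). The call of DnMaml/MyoD against MyoD-/- was lost without chip 1 (adjusted p = 0.0588) and without chip 4 (adjusted p = 0.053).

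Cox7a1 was not called in any comparison. Its wild-type arrays lay at 6.34 to 8.05 and the 4 MyoD+/- arrays at 7.84, 7.35, 6.41 and 7.67. MyoD-/- arrays ran from 6.14 over 7.35 to 9.17, DnMaml/MyoD from 6.55 over 8.46 to 10.5, and Rbpj/MyoD from 6.11 over 6.76 to 7.51. All groups overlapped, and the spread within DnMaml/MyoD followed the chips: 8.63 to 10.5 on chips 1 and 2, and 6.55 to 8.30 on chips 4 to 7. The log2 difference of DnMaml/MyoD from MyoD-/- was 0.86 (SE 0.348, limma adjusted p = 0.1), that of Rbpj/MyoD from DnMaml/MyoD was -1.39 (SE 0.452, limma adjusted p = 0.0527), and the latter passed the threshold under 11 of 67 other settings. Each of the muscle isoforms rests on 1 probe.

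The general isoforms moved little. Cox6a1 differed by -0.03, 0.05 and 0.03 and Cox7a2 by 0.02, 0.11 and -0.15 in MyoD-/- against wild type and in DnMaml/MyoD and Rbpj/MyoD against MyoD-/-, none of them called. Cox8a fell in MyoD-/- by 0.16 (SE 0.0585, limma adjusted p = 0.0411), and its ranges overlapped, with 14.71 to 15.02 in the controls and 14.40 to 14.92 in the mutants. The call was lost under 21 of 67 other settings, 12 of them leaving out 1 array. Cox4i1 (-0.10), Cox6b1 (-0.03) and Cox6b2 (-0.11) did not pass the test between wild type and MyoD-/-. Cox6a1 also differed between chip sets within wild type, at 14.4 to 14.9 on chips 1 and 2 and 14.03 to 14.15 on chips 4 to 7.

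To set the isoform pairs side by side, their promoters are printed from RefSeq (GRCm38.p6), each the coding strand from 250 bases before to 50 bases after the gene's start. Of the 80 genes 68 had an entry, and Cox6a2 is named only. Capitals mark matches, on either strand, to CANNTG (the E-box bound by MyoD and related factors), TGGGAA (core of the Rbpj site), CCGGAAG (GABPA), CGCATGCG (NRF1) and TCAAGGTCA (estrogen-related receptors). The muscle isoforms Cox7a1 (chr7:30183921-30184220, plus strand) and Cox8b (chr7:140900397-140900696, minus strand) are followed by their general counterparts Cox7a2 (chr9:79759804-79760103, minus strand) and Cox8a (chr19:7217567-7217866, minus strand).
Cox7a1: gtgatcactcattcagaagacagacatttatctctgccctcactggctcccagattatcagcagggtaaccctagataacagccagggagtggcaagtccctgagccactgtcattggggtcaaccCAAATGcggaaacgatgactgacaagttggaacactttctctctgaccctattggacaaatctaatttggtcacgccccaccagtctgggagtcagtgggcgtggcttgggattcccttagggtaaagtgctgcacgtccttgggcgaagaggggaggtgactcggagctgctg
Cox8b: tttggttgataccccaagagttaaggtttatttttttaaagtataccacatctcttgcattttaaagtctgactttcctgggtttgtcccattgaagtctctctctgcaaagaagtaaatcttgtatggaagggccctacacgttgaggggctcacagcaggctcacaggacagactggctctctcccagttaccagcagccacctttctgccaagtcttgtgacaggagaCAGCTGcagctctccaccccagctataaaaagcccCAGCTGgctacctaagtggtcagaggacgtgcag
Cox7a2: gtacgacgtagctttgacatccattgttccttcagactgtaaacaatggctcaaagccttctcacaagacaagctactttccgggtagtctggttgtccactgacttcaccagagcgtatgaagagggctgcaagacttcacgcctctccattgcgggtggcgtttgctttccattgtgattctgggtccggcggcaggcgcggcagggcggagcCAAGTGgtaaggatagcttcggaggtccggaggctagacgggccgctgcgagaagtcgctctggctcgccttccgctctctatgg
Cox8a: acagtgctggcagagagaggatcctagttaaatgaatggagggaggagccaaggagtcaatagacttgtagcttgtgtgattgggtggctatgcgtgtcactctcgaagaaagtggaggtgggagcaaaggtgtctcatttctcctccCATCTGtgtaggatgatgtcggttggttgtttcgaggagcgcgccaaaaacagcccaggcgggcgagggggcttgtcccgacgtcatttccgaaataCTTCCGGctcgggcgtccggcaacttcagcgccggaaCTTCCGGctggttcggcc
Cox8b held 2 E-box matches, both of the form CAGCTG, which is a subset of CANNTG, while Cox7a1, Cox7a2 and Cox8a held 1 E-box match each and none of that form. Cox8a held 2 GABPA matches. Of all 32851 promoter windows of the table, 72.3% held CANNTG, 16.3% CAGCTG, 25.6% TGGGAA, 8.86% CCGGAAG, 1.87% CGCATGCG and 0.423% TCAAGGTCA. Among the 73 windows of the genes described here the shares were 71.2%, 6.85%, 20.5%, 21.9%, 13.7% and 2.74% in the same order. A match describes the letters of these windows and is not a measured binding site.

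Across the whole set, MyoD-/- cells had slightly lower intensities than wild type. Of the 80 genes, 2 rose (Cox8b, Ndufaf4) and 22 fell, where 23.1% of all genes tested were called, 11.2% higher and 12% lower. The median change was -0.13, against -0.01 over all genes, and 72 of 80 values were below 0. Apart from Cox6a2 the called falls were small, 0.40 or less on the log2 scale. The number of called falls depended on the scaling. With arrays scaled to a common median instead of quantile-normalised, 3 members were called (Cox8b and Ndufaf4 higher, Cox6a2 lower). The members' median was then -0.05 while that of all genes shifted to 0.07, and 54 of 80 values were below 0. With either scaling the members' median lay below that of all genes. Without the chip term 13 were called, without chip 1 10, without chip 2 8, and on chips 4 to 7 alone in the same model 8. Shares of all genes called under these settings are not given, so the counts do not show whether the drop is particular to members.

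Complex I, the NADH dehydrogenase, supplied 10 of the called falls, and all 34 Nduf genes other than the assembly factors had values below 0 with quantile normalisation (median -0.15). The 34 include the pseudogene Ndufs5-ps and Ndufa4, which is named for complex I and now counted with complex IV. Its flavin- and iron-sulfur-bearing core was represented by Ndufs7 (-0.33, SE 0.0653, limma adjusted p = 2.33e-04), Ndufs8 (-0.34, limma adjusted p = 1.36e-03), Ndufv1 (-0.23) and Ndufv2 (-0.18). Ndufs7 ran from 13.2 over 13.3 to 13.6 in wild type and from 12.64 over 13.01 to 13.48 in MyoD-/-, so the groups overlapped. The called accessory subunits included Ndufa8 (-0.32, SE 0.0594, limma adjusted p = 9.5e-05), Ndufc2 (-0.36, limma adjusted p = 9.07e-04) and Ndufc1 (-0.27, limma adjusted p = 0.0137). Ndufa8 lay at 12.9 to 13.5 in wild type and at 12.6 to 13.2 in MyoD-/-. A second probe of Ndufa8 gave -0.29 and was called among all probes, whereas a second probe of Ndufc1 gave -0.05 and was not. Of the assembly factors, which build complex I but do not stay in it, Ndufaf4 rose (0.37, SE 0.124, limma adjusted p = 0.0279) and Ndufaf3 fell (-0.40, SE 0.148, limma adjusted p = 0.0461). The Ndufaf3 call was lost under 40 of 66 other settings and the Ndufaf4 call under 12 of 67, 6 of them leaving out 1 array. Ndufaf4 was at 0.62 on chips 1 and 2 and 0.02 on chips 4 to 7, and above 0 on 3 of 6 chips. Ndufab1, the mitochondrial acyl carrier protein, was detected on 30 of 47 arrays and did not pass (-0.10). Ndufa4 did not pass (-0.19, limma adjusted p = 0.0932).

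In complex II the iron-sulfur subunit Sdhb (-0.24, limma adjusted p = 0.0224) and the membrane anchor Sdhc (-0.29, SE 0.0767, limma adjusted p = 4.74e-03) fell. Sdhc was at -0.49 on the early chips (limma adjusted p = 8.17e-04) and at -0.06 on the late chips (limma adjusted p = 0.89). The difference between these effects did not pass its test (0.43, limma adjusted p = 0.197). The calls of Sdhb and Sdhc were lost under 9 and 5 of 67 other settings. Sdhd, the other anchor, did not pass (-0.13). In complex III cytochrome c1 (Cyc1, -0.23, limma adjusted p = 1.93e-03) and the small subunit Uqcr10 (-0.21) fell. A second Uqcr10 probe gave -0.14 and was not called among all probes. Cytochrome c itself (Cycs, -0.17) did not pass. In complex IV Cox5a, a subunit with no muscle isoform, fell by 0.23 beside Cox6a2 and Cox8a. In ATP synthase 4 genes fell, among them the peripheral stalk subunit Atp5o (-0.25, limma adjusted p = 0.0142) and Atp5g1 (-0.22, limma adjusted p = 0.0318), one of the genes for the membrane ring. The Atp5g1 call was lost under 16 of 67 other settings, 8 of them leaving out 1 array. Its other ring genes Atp5g2 (-0.28, limma adjusted p = 0.06) and Atp5g3 (-0.06) did not pass, nor did the catalytic subunit Atp5b (-0.01), and 15 of 15 values of this complex were below 0 with quantile normalisation (median -0.11).

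**Figure D2:**
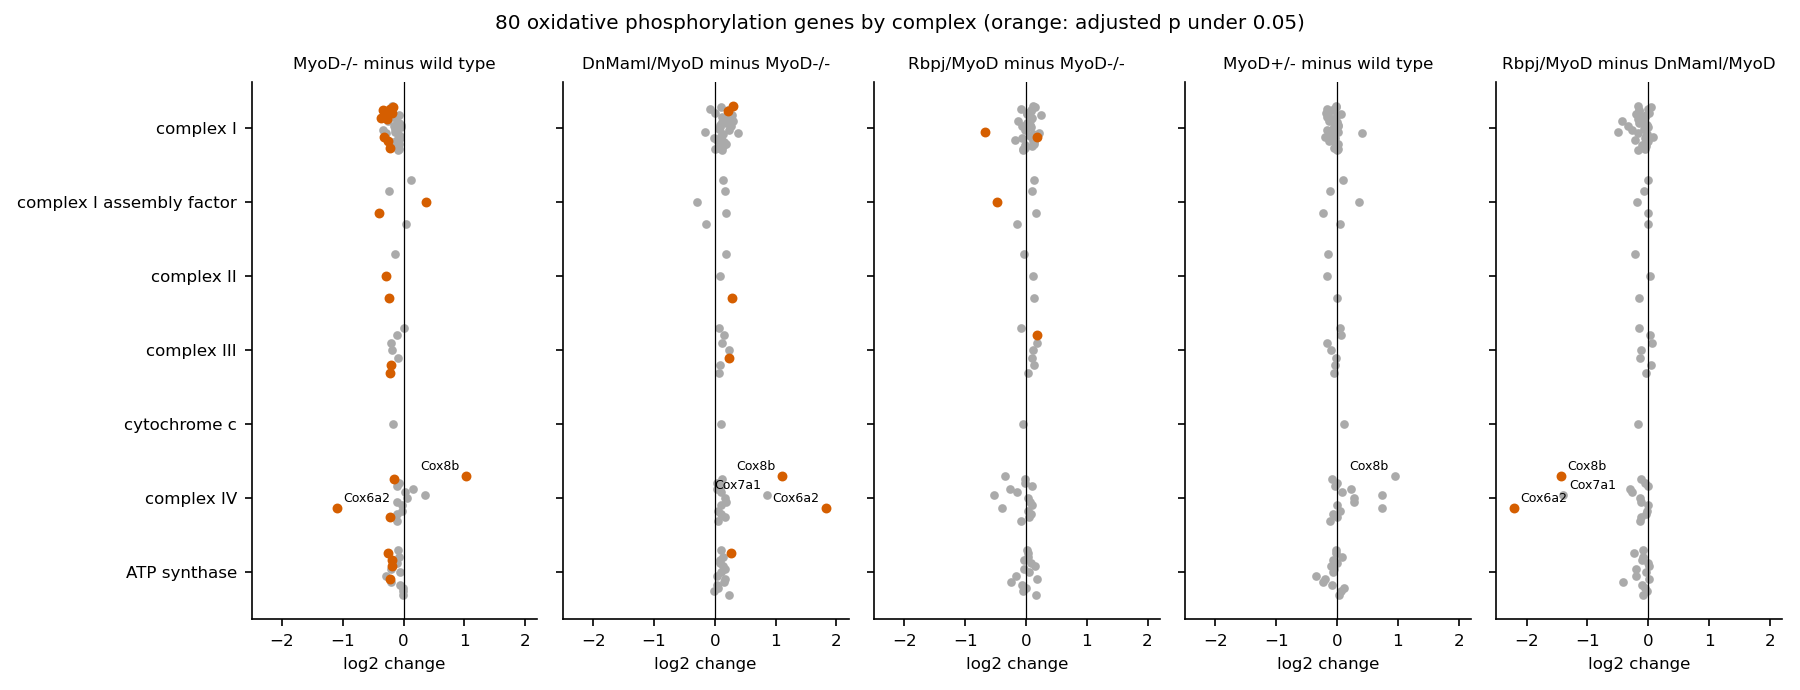
Log2 change of each of the 80 genes, with quantile normalisation and chip held constant, grouped by complex, with orange points at an adjusted p under 0.05. Most genes lie near 0 in every comparison, and Cox6a2 (-1.09 and 1.82) and Cox8b (1.02 and 1.10) lie farthest out in MyoD-/- against wild type and DnMaml/MyoD against MyoD-/-.

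In DnMaml/MyoD cells every called member was higher. Against MyoD-/-, 7 of the 80 rose and 0 fell, where 11.9% of all genes were called, 6.68% higher and 5.17% lower. At an unadjusted p under 0.05 there were 20 members, 19 higher and 1 lower, beside 2264 of all 8658 genes. The median was 0.12 against -0.01 over all genes, and 74 of 80 values were above 0. Besides Cox6a2 and Cox8b the calls were Ndufv3 (0.30, SE 0.0772, limma adjusted p = 8.39e-03) and Ndufs7 (0.22, limma adjusted p = 0.0302) of complex I, Sdhb (0.28, limma adjusted p = 0.0178) of complex II, Uqcr11 (0.23, limma adjusted p = 0.012) of complex III and Atp5o (0.26, limma adjusted p = 0.0277) of ATP synthase. The calls of Ndufs7, Atp5o and Sdhb were lost under 15, 11 and 8 of 67 other settings. A second Sdhb probe gave 0.23, and other Ndufv3 probes gave 0.24 and 0.31, none of them called among all probes. Ndufs7, Sdhb and Atp5o were also among the falls of MyoD-/- against wild type, a comparison that uses the same MyoD-/- arrays. With arrays scaled to a common median only Cox6a2 and Cox8b were called and the median was 0.09, against -0.06 over all genes. The count was 3 without the chip term, 2 without chip 1 and 4 without chip 5. These counts too stand without the share of all genes called.

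Rbpj/MyoD cells differed from MyoD-/- in few members although many other genes were called. Uqcrc2, a core protein of complex III, rose (0.18, SE 0.0579, limma adjusted p = 0.0182), as did Ndufa8 (0.19, limma adjusted p = 0.0349), while Ndufb11, an accessory subunit of complex I, and Ndufaf4 fell. The second Ndufa8 probe gave 0.01 in this comparison and was not called, and the Ndufa8 call was lost under 16 of 67 other settings, 6 of them leaving out 1 array. These 4 of 80 stand beside 24.5% called of all genes, 12.2% higher and 12.3% lower. The median was 0.04, against -0.02 over all genes, and it was below 0 under median scaling (-0.09), where all genes had -0.10 and the calls were Ndufaf4 and Ndufb11, both lower. Ndufb11 read 7.16 over 7.98 to 8.85 in wild type and 6.51 over 7.80 to 8.87 in MyoD-/-. In Rbpj/MyoD it read 6.74, 6.22 and 5.58 on chip 3 and 7.50 to 7.94 on chips 4 to 7, with 4 of 7 arrays detected, and the change was -0.67 (SE 0.168, limma adjusted p = 2.63e-03). It was below 0 on 5 of 5 chips (-0.90 to -0.45). The call was lost without the chip term (adjusted p = 0.0894) and with a replicate block (adjusted p = 0.737). A second, dimmer Ndufb11 probe, detected on 10 arrays, gave -0.18 and was not called. Ndufaf4 ran from 11.04 over 11.83 to 12.45 in MyoD-/- and from 10.59 over 11.26 to 11.45 in Rbpj/MyoD (-0.48, SE 0.14, limma adjusted p = 9.7e-03), overlapping ranges, and the call was lost without chip 3 (adjusted p = 0.0872).

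Set directly against each other, the Notch mutants differed in 2 members, Cox6a2 and Cox8b, both lower in Rbpj/MyoD, where 6.79% of all genes were called, 3.2% higher and 3.59% lower. An unadjusted p under 0.05 was reached by 7 of the 80, all lower, beside 1597 of all 8658 genes. The median was -0.08 against -0.00 over all genes, with 70 of 80 values below 0. Cox6a2 was lower in Rbpj/MyoD on 4 of 4 chips that hold both (-2.40 to -1.42), and so was Cox8b (-1.72 to -0.56). The Cox8b call was lost without chip 4 (adjusted p = 0.053), without the chip term (adjusted p = 0.0833) and with a replicate block (adjusted p = 0.121).

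**Figure D3:**
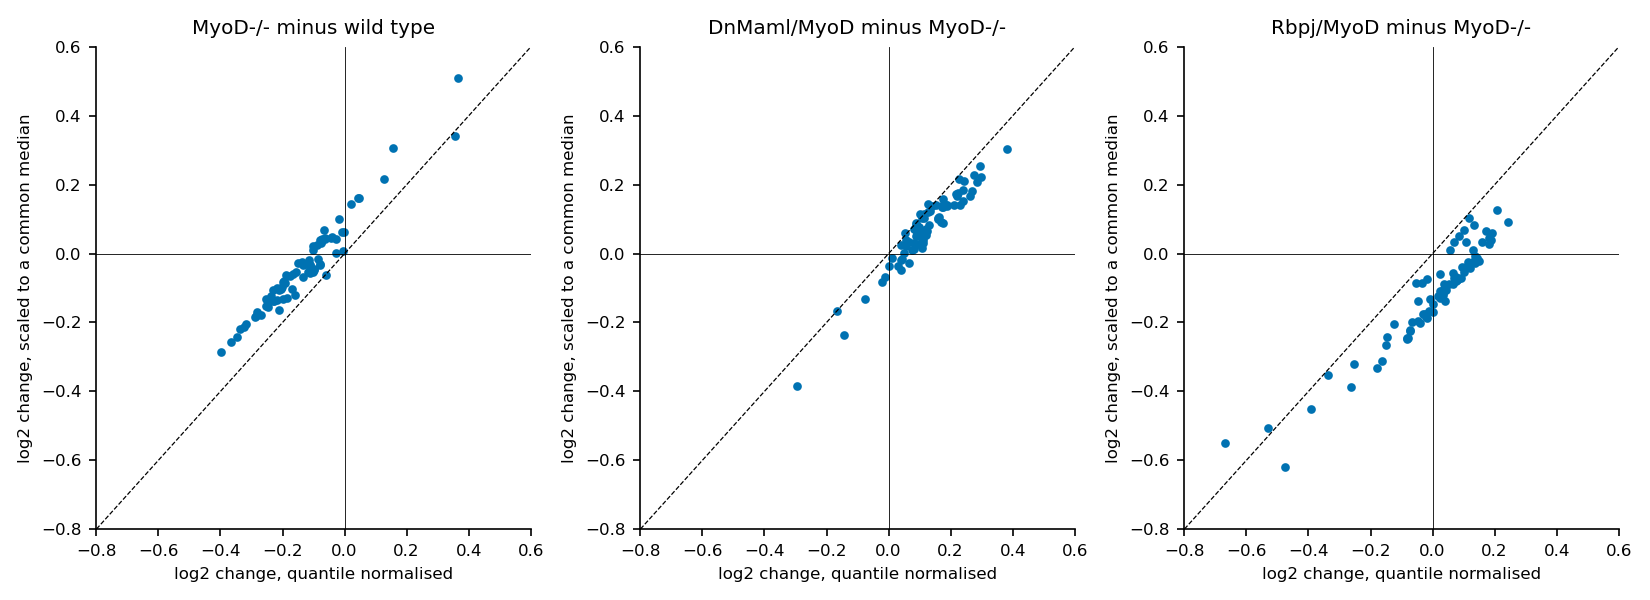
Log2 change of each gene with arrays scaled to a common median (vertical) against the change with quantile normalisation (horizontal), in 3 comparisons, with a dashed line at equal values. For MyoD-/- minus wild type 77 of 80 genes have the higher value under median scaling, and for DnMaml/MyoD and Rbpj/MyoD minus MyoD-/- 74 and 78 have the lower one. In each comparison the median of all genes tested moved the same way under median scaling. The axis range leaves out 2 genes on the left and 3 in the middle.

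Loss of 1 MyoD copy gave 0 called members and 0 called genes in all with limma, so the share of genes called was 0%. At an unadjusted p under 0.05 there were 412 genes, 3 of them members. These were Cox8b (0.95, limma adjusted p = 0.93), Ndufa8 (-0.19) and Atp5g2 (-0.35). All MyoD+/- arrays lie on chips 4 to 7, and within those chips Cox8b differed by -0.57 to 0.92, above 0 on 2 of 4. Fitted on chips 4 to 7 alone, the Cox8b value was 0.167. Cox6a2 had 0.73 (95% interval -0.08 to 1.54) and Cox7a1 0.73 (-0.28 to 1.74), where the wild-type arrays of chips 1 and 2 enter the mean. The members' median was -0.03, against -0.01 over all genes.

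Chips 1 and 2 and chips 4 to 7 each hold wild type, MyoD-/- and DnMaml/MyoD, so those comparisons were repeated on each set. In MyoD-/- against wild type 2 members rose and 17 fell on chips 1 and 2, where 21% of genes were called (9.92% higher, 11% lower), and 0 rose and 1 fell, Cox6a2, on chips 4 to 7, where 6.36% were (2.55% higher, 3.81% lower). The medians were -0.18 and -0.08, with 68 and 62 of 80 values below 0. In DnMaml/MyoD against MyoD-/- 4 members rose on chips 1 and 2 (4.9% of genes called, 3.05% higher and 1.85% lower) and 1 on chips 4 to 7 (7.57%, 3.71% higher and 3.86% lower), 0 fell on either, and the medians were 0.14 and 0.11. For the same comparison another fit, of the arrays of chips 4 to 7 alone with all 5 genotypes, called 6 members (5 higher and 1 lower) among 1713 called genes. For MyoD-/- against wild type that other fit, counted further above, likewise called more members than Cox6a2 alone. The counts on these chips thus depend on the model fitted. The difference of DnMaml/MyoD against MyoD-/- between chips 1 and 2 and chips 4 to 7 was tested by the interaction. It passed for 6 genes of all tested (0.0693%, 0.0116% toward higher and 0.0578% toward lower values) and 0 members. An unadjusted p under 0.05 was reached by 2 members and by 1046 of all 8658 genes. Within single chips the members' median for MyoD-/- minus wild type ran from -0.20 on chip 5 to -0.03 on chip 6, and for DnMaml/MyoD minus MyoD-/- from 0.01 on chip 4 to 0.21 on chip 5.

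**Figure D4:**
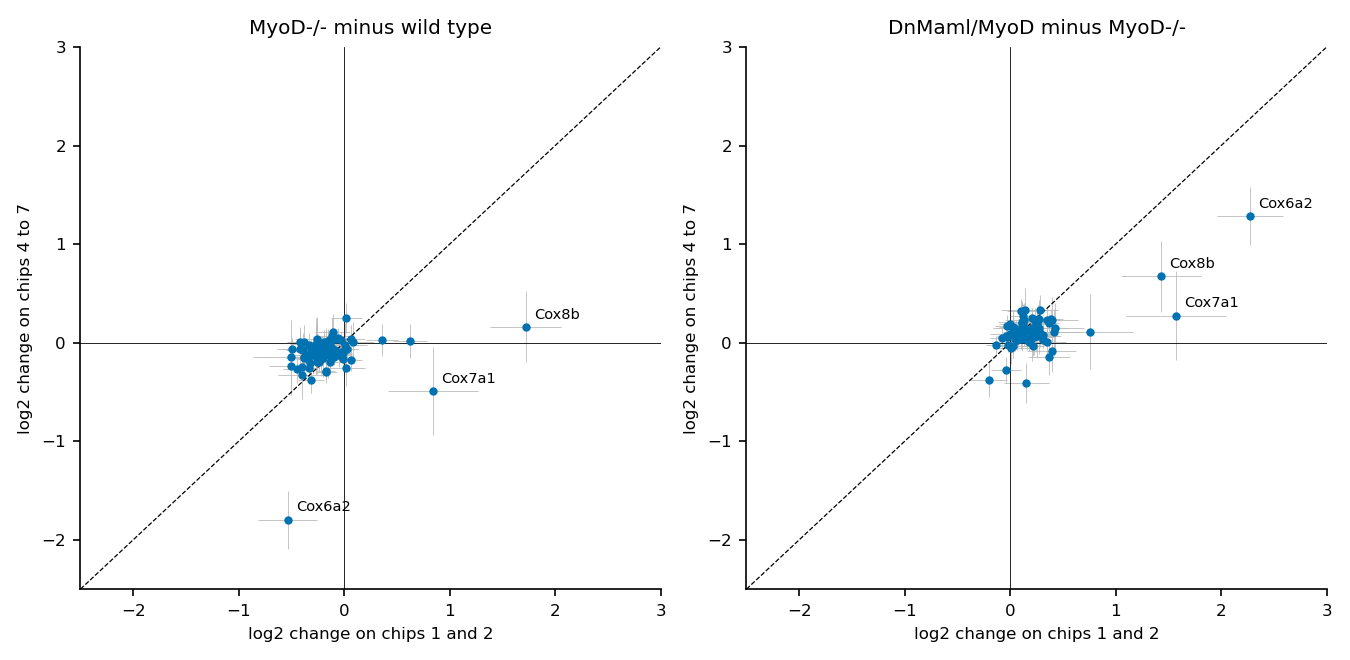
Log2 change on chips 4 to 7 (vertical) against chips 1 and 2 (horizontal) for each of the 80 genes, with standard errors and a dashed line at equal effects. Cox6a2, Cox7a1 and Cox8b lie apart from the other genes in MyoD-/- minus wild type. They have -0.54 and -1.80, 0.84 and -0.49, and 1.72 and 0.16 on chips 1 and 2 and on chips 4 to 7.

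Genes that followed Cox6a2 across the 47 arrays were sarcomere and muscle membrane genes. With chip means removed, Pearson's r was 0.943 for Acta1 (skeletal actin), 0.893 for Mylpf (fast myosin light chain), 0.865 for Cacng1 (a calcium channel subunit), 0.865 for Actc1 (cardiac actin, also made in embryonic muscle) and 0.848 for Mymk (the fusion protein myomaker). With Acta1 it was 0.931 over the 16 arrays of chips 1 and 2, 0.979 over the 24 of chips 4 to 7 and 0.873 within the 18 MyoD-/- arrays. The member most like Cox6a2 was Cox5a (0.659), and the median r with the other members was 0.187. Cox8b and Cox7a1 had other nearest genes, picked here after their values were seen: Sln (sarcolipin, a regulator of the calcium pump, 0.888) and Actn2 (0.86) for Cox8b, and the fat cell genes Plin4 (0.912), Adipoq (0.871) and Cidea (0.85) for Cox7a1. The muscle isoforms correlated with one another at 0.48 (Cox6a2, Cox8b), 0.503 (Cox6a2, Cox7a1) and 0.6 (Cox7a1, Cox8b). These values describe arrays that share genotypes and cell preparations.

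**Figure D5:**
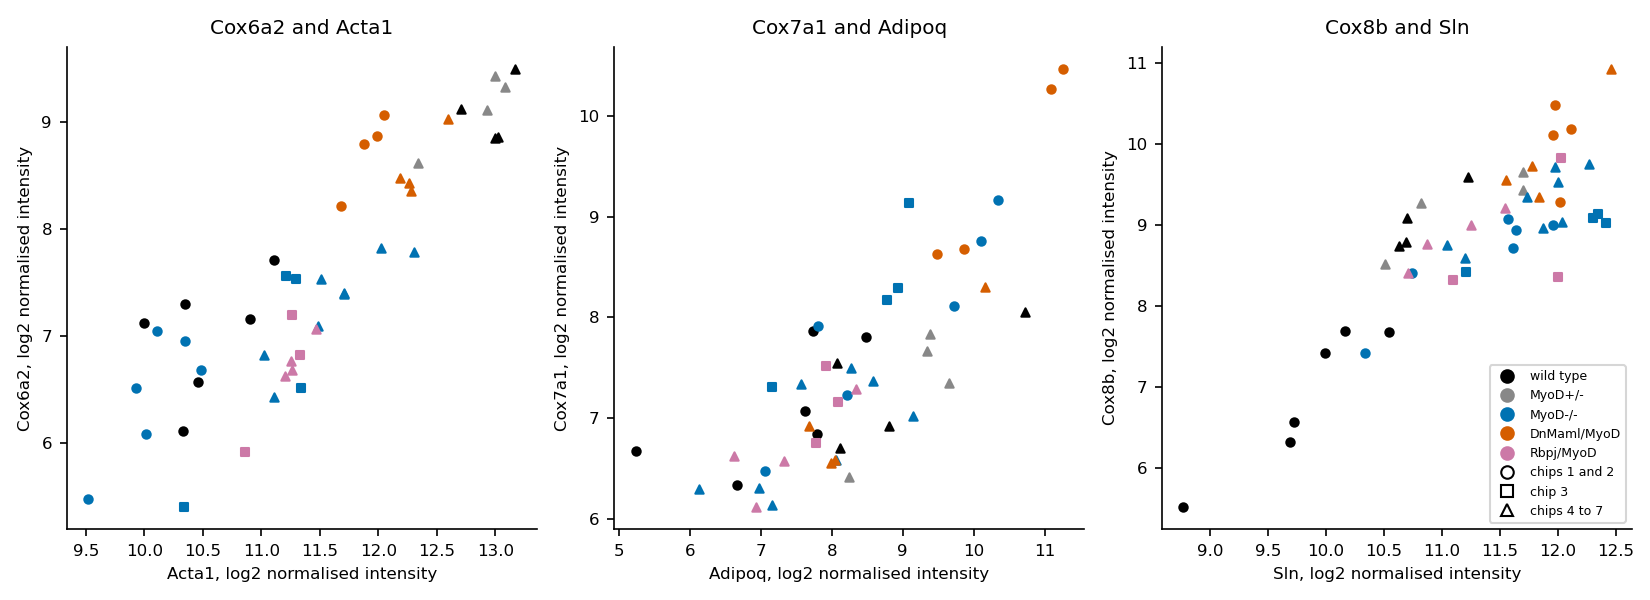
Log2 normalised intensity of Cox6a2 against Acta1, Cox7a1 against Adipoq and Cox8b against Sln on 47 arrays, coloured by genotype and shaped by chip set. With chip means removed the pairs have r of 0.943, 0.871 and 0.888.

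Marker genes of muscle differentiation changed in the same direction as Cox6a2 in most calls, whereas Cox8b rose in MyoD-/- cells where most called markers fell. Of 20 tested, 1 rose and 10 fell in MyoD-/- against wild type, 17 rose and 1 fell in DnMaml/MyoD and 2 rose and 7 fell in Rbpj/MyoD, each against MyoD-/-, and 0 rose and 17 fell in Rbpj/MyoD against DnMaml/MyoD. The log2 of their summed intensities was 15.6 to 16.3 in MyoD-/- and 16.4 to 16.6 in DnMaml/MyoD. It was 15.61 to 15.96 in Rbpj/MyoD and 16.2 to 16.6 in MyoD+/-. Sums of the other lists are given in the same way, and the brightest genes weigh most in them. Of 10 adipocyte markers, 4 were tested and 6 were below the filter, among them Ucp1, Fabp4 and Plin1. Of the 4, 1 rose (Pparg) and 1 fell (Lpl) in MyoD-/-. In each Notch mutant 1 rose, Lpl in both (0.59 in DnMaml/MyoD and 1.12 in Rbpj/MyoD). The median of the 4 against MyoD-/- was 0.69 in DnMaml/MyoD but -0.49 in Rbpj/MyoD. Cidea was called lower in Rbpj/MyoD than in DnMaml/MyoD (-1.54). The sum of the 4 ran from 12.09 to 13.24 for the wild type and 11.13 to 12.68 for MyoD-/-. It was 12.03 to 13.20 in DnMaml/MyoD and 12.08 to 12.96 in Rbpj/MyoD. Of 9 fibroblast markers 2 rose in MyoD-/-, 1 in DnMaml/MyoD and 7 in Rbpj/MyoD. Progenitor markers were lower in both Notch mutants than in MyoD-/-, 4 of 9 in DnMaml/MyoD and 8 of 9 in Rbpj/MyoD, with 0 higher in either. Their sums were 15.58 to 16.03 in MyoD-/-, 15.08 to 15.67 in DnMaml/MyoD and 14.91 to 15.20 in Rbpj/MyoD. Of 3 tested Schwann and neural crest markers, 3 rose in DnMaml/MyoD, among them the myelin gene Mbp (2.23), and 2 rose in Rbpj/MyoD. Their sums were 9.954 to 10.83 in MyoD-/-, 11.29 to 11.80 in DnMaml/MyoD and 11.63 to 12.07 in Rbpj/MyoD, so both mutants lay above MyoD-/- without overlap. The 3 tested erythroid markers fell in Rbpj/MyoD, among them Alas2 (-2.03), an enzyme of heme synthesis. The part of these cell types in the results on oxidative phosphorylation genes was not tested.

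Other mitochondrial genes were described by lists put together with earlier results in view. The list of muscle energy metabolism held 8 tested genes, of which Cox6a2, Cox7a1 and Cox8b are described above. Of the 5 others, 0 rose and 3 fell in MyoD-/-, the muscle creatine kinases Ckm (-1.20) and Ckmt2 (-0.55) and the fatty acid binding protein Fabp3 (-0.38). In DnMaml/MyoD Ckm (0.91), Fabp3 (0.82) and Ckb (0.52), the creatine kinase of brain and immature muscle, rose and 0 fell. In Rbpj/MyoD 0 of the 5 were called against MyoD-/-, and 3 were lower than in DnMaml/MyoD. Myoglobin (Mb) was not called in any comparison. Of 16 citrate cycle genes 3 fell in MyoD-/- (Idh3a -0.42, Mdh2 -0.27, Suclg1 -0.21), and 0 were called in the other comparisons. Of 29 assembly factors, mostly of complexes II to V, 4 fell in MyoD-/-, among them Uqcc2 (-0.44), Sdhaf4 (-0.42) and Cox17 (-0.38). In DnMaml/MyoD Sdhaf4 (0.40), Tmem126b (0.37), which assembles complex I, and Cox17 (0.30) rose, and in Rbpj/MyoD 3 of the list rose and 1 fell. Of all genes 23.1% were called in MyoD-/-, 11.9% in DnMaml/MyoD, 24.5% in Rbpj/MyoD and 6.79% between the Notch mutants.

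Regulators of mitochondrial content were called about as often as all genes, 2 of 12 in MyoD-/- beside 23.1%, 1 of 12 in DnMaml/MyoD beside 11.9% and 3 of 12 in Rbpj/MyoD beside 24.5%. Tfb1m, a methyltransferase of mitochondrial ribosomal RNA, fell in MyoD-/- (-0.57) and the helicase Twnk rose (0.48). Tfam, which packages and transcribes mitochondrial DNA, fell in DnMaml/MyoD (-0.43). In Rbpj/MyoD the coactivator Ppargc1a (-0.71), Gabpb1 (-0.30), a subunit of GABP, and the polymerase Polg (-0.25) fell. The list's median was -0.01, -0.20 and -0.23 in these comparisons. Of 70 mitochondrial ribosomal protein genes 4 rose and 8 fell in MyoD-/-, 0 rose and 2 fell in DnMaml/MyoD, and 0 rose and 7 fell in Rbpj/MyoD. These counts too stand beside 23.1%, 11.9% and 24.5% called of all genes. Of 9 mitochondrial carriers and channels 0 were called in MyoD-/- and DnMaml/MyoD, and Slc25a20, the carnitine carrier, rose in Rbpj/MyoD (0.35).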

How the data were processed

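RNA of sorted muscle progenitor cells was measured on Illumina bead arrays, 47 arrays of 5 genotypes on 7 chips. The deposited table holds linear probe intensities before normalisation. They come from GenomeStudio 2010.1, used by the authors according to the submitters' processing notes. The detection p-value beside each intensity is the authors' too, per the file headers, and ranks the probe among 798 negative control probes. The authors' processed intensities, also deposited, were an alternative; their normalisation is not stated in the labels or headers. Array medians ran from 64.1 to 250, with 8761 to 11819 probes detected per array. Precision is limited by how many arrays there are.

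The background was corrected through the detection p-values (offset 16) and the values were quantile-normalised and taken to log2 with limma 3.58.1 in R 4.3.3. Of 25697 probes, 23978 carry 1 gene symbol and 1719 none. Those detected in at least 4 arrays were kept (12482, 718 of them unnamed), with the brightest probe for each of 2244 genes with several, 14 of them members. Genotype and chip were fitted with limma (36 residual degrees of freedom); an interaction tested chips 1 and 2 against 4 to 7. Named genes were the isoform pairs, the complex II and cytochrome c genes, up to 8 called members each way per comparison, the members of highest and lowest mean level, up to 3 called genes per companion list, and the 5 genes most like Cox6a2. The members and lists were chosen with earlier results of these data known. No pair of arrays was identical (highest correlation 0.9938). Arrays of chips 6 and 7 were to be joined if 75% correlated best with their partner and the median correlation passed 0.3. With genotype and chip removed that median was 0.491, but 8 of 12 correlated best, so none were joined. The other chip pairs compared had medians of -0.111 to 0.122. Some arrays of chips 6 and 7 may therefore repeat a sample, though the fit counts each as separate. Same-numbered arrays of different genotypes had correlations of -0.388 to 0.285 (median -0.03), so the numbers do not pair arrays. The fit was tested on simulated data.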

Additional observations from a re-analysis of the deposited data

Results flagged for a closer look

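Within a group of 4 to 10 arrays, 6 of 132 values tested had 1 array set apart from the others by Dixon's criterion, which chance gives in about 1 in 20 groups. In DnMaml/MyoD the lowest array stood apart for Cox7a2l, a factor of respiratory supercomplexes, at 12.35 where the next lay at 12.87 and the highest at 13.15. The same held for Cox8a at 14.5, next 14.75 and highest 14.89, and for the ATP synthase ring gene Atp5g3 at 15.5, next 15.62 and highest 15.72. These were replicates 1, 3 and 7, on chips 1, 2 and 6. In Rbpj/MyoD replicate 3, on chip 3, was set apart for 3 genes. Its Cox6b1 was highest at 15.11, next 14.67 and lowest 14.54. Its Ndufaf4 was lowest at 10.59, next 11.12 and highest 11.45, and its Ndufv3 was lowest at 12.66, next 13.18 and highest 13.38.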

How the results depend on the processing

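Counts of called members were repeated under 67 other settings, 47 of which leave out 1 array each; joined arrays, the sex covariate and the authors' values were among them, and treating every array as its own replicate is the fit reported. For MyoD-/- against wild type (24 called) median scaling gave 3, no chip term 13, without chip 1 10, without chip 2 8, without chip 5 15 and chips 4 to 7 alone 8, with 18 to 26 when 1 array was left out. The median was -0.0527 with median scaling and -0.154 to -0.119 without 1 array. For DnMaml/MyoD against MyoD-/- (7 called) median scaling gave 2, no chip term 3, without chip 1 2 and without chip 5 4; without 1 array the range was 5 to 11, median 0.106 to 0.131. For Rbpj/MyoD against MyoD-/- (4 called) median scaling, no chip term, without chip 4 and without chip 5 gave 2 each. The median turned to -0.0862 with median scaling, where the median of all genes fell as well. Without 1 array the counts were 3 to 5 and the medians 0.0247 to 0.0625. For MyoD+/- against wild type the count stayed 0 without 1 array, the median was -0.0775 to -0.00599, and chips 4 to 7 alone turned it to 0.0126. For Rbpj/MyoD against DnMaml/MyoD (2 called) no chip term gave 1, median scaling a median of -0.174, and without 1 array the counts were 2 to 3 and the medians -0.0983 to -0.0661. The cause of these shifts was not tested, and the reduced fits also rest on fewer arrays. Shares of all genes called under each setting are not set beside these counts. The counts therefore do not show whether a shift is particular to the members.

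The fit with the replicate block, on numbers that do not pair arrays, called 17 and 6 members for MyoD-/- against wild type and DnMaml/MyoD against MyoD-/-. It gave 11 for Rbpj/MyoD against MyoD-/- with a median of -0.00627, 7 for MyoD+/- against wild type and 1 for Rbpj/MyoD against DnMaml/MyoD. Shares of all genes called with this block are not given. With this block Uqcr11 in DnMaml/MyoD was at -6.27e-05. Cox6a2 kept its call under 67 of 67 settings for MyoD-/- against wild type (-1.80 to -0.73), DnMaml/MyoD against MyoD-/- (1.20 to 2.19) and Rbpj/MyoD against DnMaml/MyoD (-2.40 to -1.46). The interaction called 0 members under each of 6 settings. Probes near background, such as those of Ndufab1, Ndufaf3 and Cox7a1, limit what small changes can show.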
